A study of Homo sapiens with 18 samples.

Results

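R-loops of wild-type (WT) MCF10A cells after 6 h of PMA were compared with those after 2 h of PMA, from the peak lists of 2 DRIP–seq libraries. The members were all regions of both lists, 111771 at 2 h and 165877 at 6 h, which together made 277648 of the 774635 regions in the 9 lists of the series. The series held 18 samples, 9 immunoprecipitations with a list each and 9 inputs. It was made to ask how the cytidine deaminase A3B (APOBEC3B) affects R-loops when signalling switches genes on. MCF10A is a non-tumorigenic line of human mammary epithelium, grown here in medium with EGF. WT and A3B KO cells received DMSO, the solvent, or 25 ng/ml PMA for 2 h or 6 h. The KO was made by deleting the part of the genome between A3B and its neighbour APOBEC3A, which leaves a fusion of both genes, and is a derived line rather than a replicate of WT. A further MCF10A line carried A3B-eGFP under a doxycycline-inducible promoter. It was profiled by ChIP–seq with an anti-GFP antibody without doxycycline in DMSO, and after 24 h of 1 µg/ml doxycycline in DMSO or with PMA for 2 h.

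In an R-loop an RNA stays paired with its DNA template and the other DNA strand is left single. It forms mostly behind RNA polymerase II, favours stretches where the non-template strand is rich in G, and is captured by the antibody S9.6, which binds RNA/DNA hybrids. PMA is a phorbol ester that activates protein kinase C and, through it, the ERK and NF-κB pathways. Immediate early genes such as FOS, JUNB and EGR1 are then transcribed within minutes without new protein synthesis, and most are shut off again within hours, while delayed genes follow.

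Each condition had 1 library, so no test between times was possible, and the Wilson 95% intervals given with shares cover counting error only. Every region was a 500 bp window around a summit. Fold enrichment is the height at the summit over the local background that MACS2 estimates with the input as control, and pileup is the number of fragments at the summit. Read totals were not used here. The 6 h list had 1.48 times as many regions as the 2 h list and a median pileup of 29 against 22, so the lists were also compared after cutting the 6 h list, by fold enrichment, to the length of the 2 h list. The DMSO list had 91894 regions and a median pileup of 21. Promoters of 8 of 12 basal epithelial marker genes had a region at 2 h and 9 of 12 at 6 h, among them KRT5, KRT14 and LAMB3. Of 8 luminal markers 4 had a promoter region at both times, as did 3 of 6 mesenchymal markers and 2 of 4 blood markers, CD14 and CD79A. The nerve marker GFAP had one at 6 h, and neither liver marker had any. Of all 19962 protein-coding genes 6374 had a promoter region at 2 h and 7693 at 6 h. The luminal, mesenchymal and blood shares were above that, so these counts alone do not identify the cells. The deleted gene, A3B itself, held no region in WT DMSO, 1 at 2 h and 2 at 6 h, and none in any of the 3 KO lists.

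The sequences below are the centres of the promoter regions that the comparison turns on, read from hg38 on the strand of the gene, with runs of 3 or more G in capitals because such runs are a known feature of R-loop-prone DNA. Windows were shortened where they would have run into an untranslated stretch, so a window can lie off the midpoint of its region, as at DDX21. HBEGF and CCND3 had the largest falls between 2 h and 6 h, and their windows come from the 2 h list.
HBEGF (chr5:140346136-140346328, minus strand): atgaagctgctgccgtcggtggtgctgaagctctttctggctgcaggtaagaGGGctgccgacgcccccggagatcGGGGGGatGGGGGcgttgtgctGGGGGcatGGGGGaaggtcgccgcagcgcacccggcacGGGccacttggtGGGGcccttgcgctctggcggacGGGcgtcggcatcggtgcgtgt
CCND3 (chr6:42048388-42048500, minus strand): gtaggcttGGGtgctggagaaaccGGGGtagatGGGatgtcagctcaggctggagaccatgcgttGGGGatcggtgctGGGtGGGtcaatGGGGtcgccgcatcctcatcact
The HBEGF window starts in coding sequence and runs into an intron, with 8 such runs in 193 bases and a GC content of 70.5%. The CCND3 window has 7 runs in 113 bases, and the midpoint of its region lies in no exon of the canonical (main annotated) transcript. DKC1 and DDX21 had the largest rises among genes shown here, and their windows come from the 6 h list.
DKC1 (chrX:154763268-154763467, plus strand): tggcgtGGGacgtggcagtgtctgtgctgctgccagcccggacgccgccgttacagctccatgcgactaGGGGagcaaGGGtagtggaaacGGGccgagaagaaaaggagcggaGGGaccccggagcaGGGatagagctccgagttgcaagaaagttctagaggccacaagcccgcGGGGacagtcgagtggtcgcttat
DDX21 (chr10:68956301-68956398, plus strand): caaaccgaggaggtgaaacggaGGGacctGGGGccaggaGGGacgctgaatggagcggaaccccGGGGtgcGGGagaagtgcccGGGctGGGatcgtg
The DKC1 window held 7 runs and the DDX21 window 7, with a GC content of 62.5% and 68.4%. The midpoints of both regions lie in no exon of the canonical transcript. JUNB and DUSP1 are immediate early genes whose PMA time course the study followed by DRIP–qPCR, and their windows come from the 2 h list.
JUNB (chr19:12792079-12792278, plus strand): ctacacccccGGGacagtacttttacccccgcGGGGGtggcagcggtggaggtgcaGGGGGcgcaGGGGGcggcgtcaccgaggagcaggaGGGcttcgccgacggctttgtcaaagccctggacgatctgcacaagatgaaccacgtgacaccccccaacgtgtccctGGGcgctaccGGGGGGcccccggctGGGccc
DUSP1 (chr5:172769985-172770184, minus strand): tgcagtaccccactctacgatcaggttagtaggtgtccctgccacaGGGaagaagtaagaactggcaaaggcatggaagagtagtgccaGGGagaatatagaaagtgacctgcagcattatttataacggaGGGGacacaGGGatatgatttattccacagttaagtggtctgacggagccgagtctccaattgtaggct
The JUNB window lies in the coding sequence of this gene without introns and has a GC content of 70.5% with 8 runs. The DUSP1 window, with its midpoint in no exon of the canonical transcript, has 4 runs and a GC content of 48.0%. G was the more frequent base of the G and C pair in all 6 windows, with a GC skew, (G − C)/(G + C), from 0.05 in JUNB to 0.37 in DDX21.

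Most R-loop regions seen at 2 h were still called at 6 h, and regions called at 2 h but not in DMSO were kept less often than those also called in DMSO. Of the 2 h regions, 71.2% (95% interval 70.9 to 71.4) overlapped a 6 h region by at least 1 bp, which left 32222 without one. In a bulk library a region can weaken because fewer cells carry the R-loop or because each carries fewer, which cannot be told apart. Of the 6 h regions, 52.4% overlapped the 2 h list and 79031 were new. With lists of equal length the shares were 56.0% and 55.8%. Lists of equal length give nearly equal shares by construction, and why more regions were new at 6 h was not tested.

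Early regions, called at 2 h without an overlap in DMSO, numbered 54289, or 48.6% of the 2 h list. At 6 h 55.0% of them (54.6 to 55.5) were still called, against 86.4% of the 57482 regions that DMSO also had. At equal list length the shares were 40.2% and 70.8%. Early regions were weaker on average, and within classes of fold enrichment they were also kept less often. Absence from the DMSO list may itself mark regions near the threshold, and why they were kept less often was not tested. Between 3-fold and 5-fold, 50.9% of 27755 early regions were kept against 82.7% of 25187 others, and between 10-fold and 20-fold 83.8% of 548 against 97.0% of 1707. DMSO and both PMA lists come from the same WT line, and the 2 h list enters every share above.

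**Figure D1:**
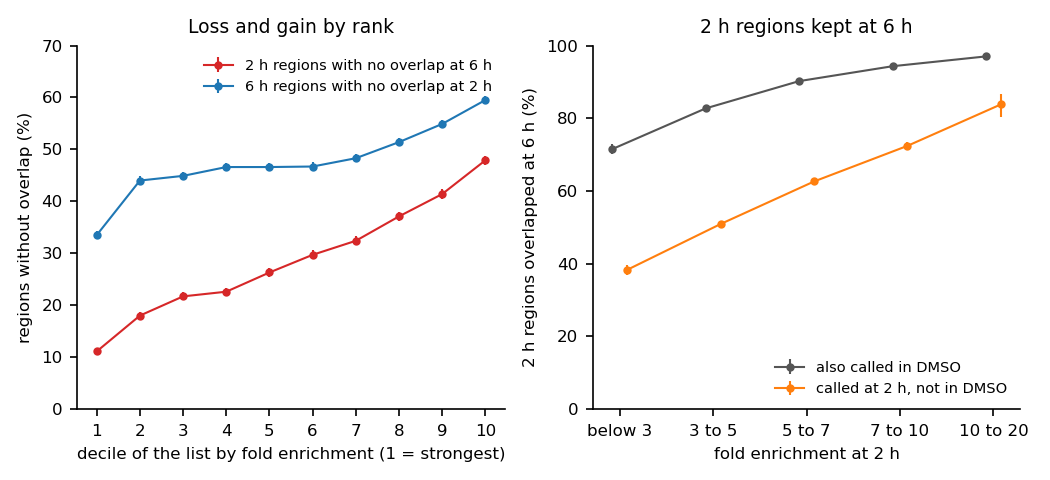
Left, percent of regions without an overlap in the other WT list (y axis) by decile of the list ranked by fold enrichment (x axis, 1 = strongest), for the 2 h list in red and the 6 h list in blue. Right, percent of 2 h regions overlapped at 6 h by their fold enrichment at 2 h, for regions also called in DMSO (grey) and early regions (orange), with 95% Wilson intervals as bars. Loss rose from 11.1% in the strongest decile of the 2 h list to 47.9% in the weakest, and the share of new regions from 33.5% to 59.5% at 6 h.

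Strong regions were less often lost, and less often new, than regions overall. Of the 2505 regions with a fold enrichment of 10 or more at 2 h, 147 (5.87%) had no overlap at 6 h, against 28.8% of all 2 h regions. Of the 9510 such regions at 6 h, 29.5% had none at 2 h, against 47.6% of all 6 h regions. In WT the median fold enrichment of a list went from 4.64 at 2 h up to 5.26 at 6 h. In A3B KO it went from 5.01 down to 4.64.

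The A3B KO libraries, which the WT comparison does not use, gave close shares, with 71.7% of KO 2 h regions overlapped at 6 h and 53.6% of KO 6 h regions overlapped at 2 h. WT regions lost by 6 h were less often present in the KO at 2 h, 34.6% against 75.2% of WT regions that were kept. Among those present, 39.7% of 11150 lost WT regions were also gone from the KO list at 6 h, against 8.39% of 59800 kept ones. New WT regions at 6 h were found in the KO 6 h list in 47.7% of cases, against 86.2% of WT 6 h regions shared with 2 h. Of the 37667 new regions found there, 54.7% were absent from KO at 2 h, while 53.6% of all KO 6 h regions were present at 2 h.

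Regions gained and regions lost were both poorer in promoters than those shared. Promoters, here within 2 kb of the most 5′ start of a protein-coding gene, held 7.23% of 2 h regions and 6.34% of 6 h regions, and protein-coding gene bodies held 50.6% and 49.7%. Of lost 2 h regions 6.26% lay at promoters against 7.62% of kept ones, and of new 6 h regions 5.01% against 7.54% of shared ones. Among early regions alone the order was the other way, with 5.20% of lost and 4.30% of kept ones at promoters. The 61174 regions called at 6 h and at neither 2 h nor in DMSO were the poorest in promoters, at 3.72% (3.57 to 3.87). The 17857 regions present in DMSO, missing at 2 h and back at 6 h were the richest, at 9.46% (9.04 to 9.90). Base composition followed this pattern for new regions but not for lost ones. Regions of 60% GC or more made 2.59% of new and 4.18% of shared 6 h regions, but 4.57% of lost and 4.33% of kept 2 h regions. Regions of 60% GC or more made 6.48% of the regions that were back at 6 h but 1.45% of those at neither earlier condition, with 4.40% in the whole 2 h list and 3.42% in the whole 6 h list.

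Promoters were compared by rank, since fold enrichment and list length differ between libraries. The value of a promoter was its strongest region within 2 kb of the start. Of 19962 protein-coding genes, 6374 had a promoter region at 2 h, 7693 at 6 h and 5288 at both, and these 5288 were ranked in each list from 1, the strongest. The log2 rank ratio is the log2 of the rank at 2 h over that at 6 h, so a negative value is a lower place at 6 h. A gene is called falling at −2 or lower and rising at 2 or higher, a 4-fold change in rank. A promoter that ranks low at both times cannot reach this call, so the absence of calls among weak promoters carries no information. By this rule 242 genes fell, 4.58% of those ranked, and 200 rose, 3.78%. Since neighbouring genes can share a summit, these came from 204 and 174 distinct pairs of summits. Of all ranked genes 2586 were lower and 2698 higher at 6 h, the median log2 rank ratio was 0.02, and the ranks of the 5288 genes at the 2 times correlated across genes, which are no replicates, with a Spearman rho of 0.59. At the edge of the rule MEF2A was just inside, at ranks 1259 and 5043, and THRAP3 just outside, at 911 and 3643. On the rising side GPRC5A was inside, at 520 and 128, and SNX14 outside, at 1871 and 469.

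**Figure D2:**
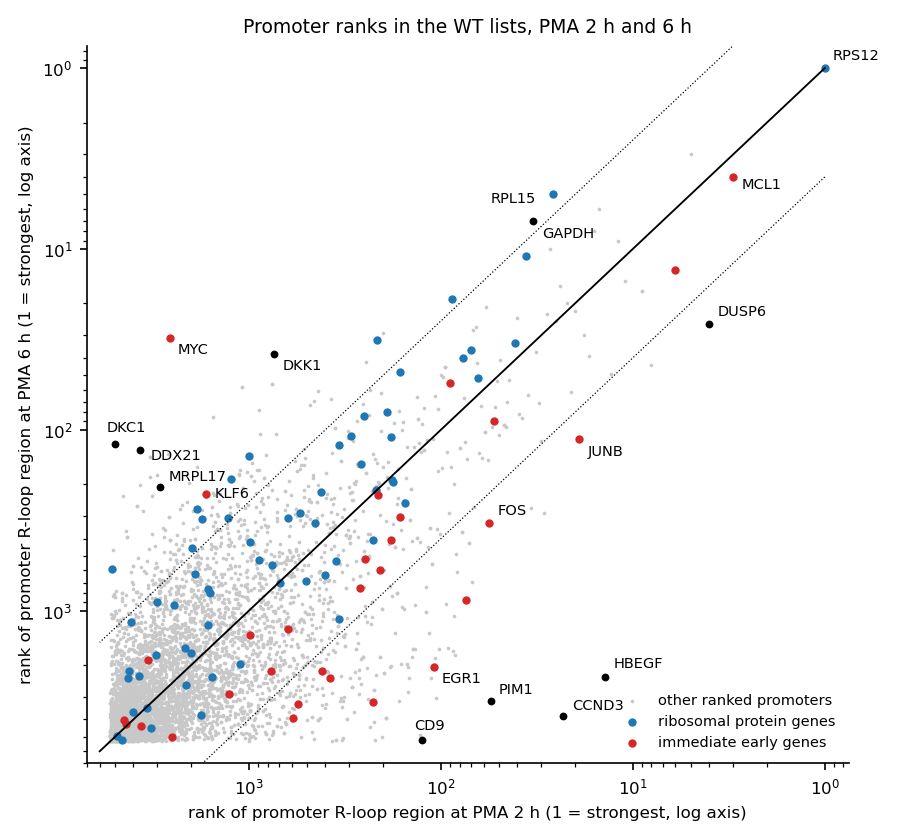
Rank of each of 5288 promoters at PMA 2 h (x axis) and at PMA 6 h (y axis) in WT, both log axes with rank 1 (strongest) at the right and top. Red points are immediate early genes, blue points ribosomal protein genes, black points other named genes and grey points the rest. The solid line marks equal ranks and the dotted lines the 4-fold change used as the call, with HBEGF, CCND3, PIM1 and CD9 below the lower line and MYC, DKK1, DKC1 and DDX21 above the upper.

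HBEGF, CCND3, PIM1 and CD9 were among the deepest falls. HBEGF, which encodes the EGF receptor ligand HB-EGF, had a fold enrichment of 4.05 in DMSO, 50.7 at 2 h and 6.43 at 6 h, and its pileup went from 514 to 89 between the PMA times. Its rank went from 14 to 2324, a log2 rank ratio of −7.38. In A3B KO the same promoter had fold enrichments of 4.57, 62.5 and 6.51, with a log2 rank ratio of −7.36. HBEGF was thus high at 2 h alone in both lines.

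CCND3, encoding the cell-cycle regulator cyclin D3, had fold enrichments of 6.55, 37.3 and 4.52 in WT DMSO, 2 h and 6 h, and went from rank 23 to 3817, with a log2 rank ratio of −7.37. Its region lay 1870 bp downstream of the start, and in the KO the ratio was −5.17. PIM1, a serine/threonine kinase gene induced by many growth signals, had fold enrichments of 9.67, 24.5 and 5.29, with −5.84 in WT and −4.69 in KO. CD9, a tetraspanin of the cell surface, had 3.21, 16.6 and 2.51, with −5.38 and −4.47. At CCND3, PIM1 and CD9 the 6 h value was below the DMSO value.

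Other large falls followed. ITPRIP, which encodes an interactor of the inositol trisphosphate receptor, had a log2 rank ratio of −5.23, AP5B1, a subunit gene of an adaptor complex in endosomal sorting, −4.85, TRIM47, a RING finger gene, −4.63, and FAM83B, linked to EGF receptor signalling, −4.56. All 4 were also lower in KO, from −2.52 for AP5B1 to −4.02 for TRIM47. RHOC, a small GTPase gene of the actin cytoskeleton, had −4.39 in WT and −1.22 in KO. TMSB4X, encoding the actin-binding peptide thymosin β4, had −4.39 in WT and 0.33 in KO, and was the exception in which the KO did not move the same way. AZI2 and ZCWPW2 share 1 summit between them with a log2 rank ratio of −4.33, and cannot be told apart.

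**Figure D3:**
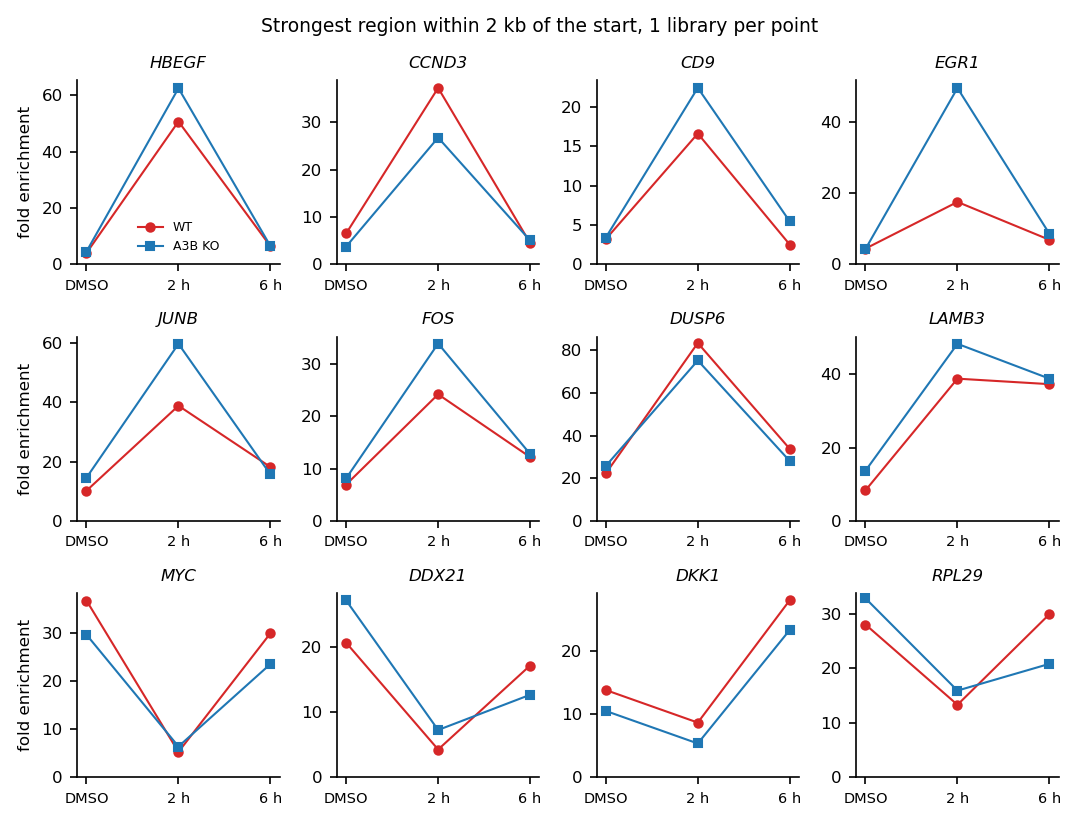
Fold enrichment (y axis, from 0, scale per panel) of the strongest region within 2 kb of the start in DMSO, PMA 2 h and PMA 6 h (x axis) for 12 genes, WT in red circles and A3B KO in blue squares, 1 library per point. HBEGF, CCND3, CD9, EGR1, JUNB, FOS and DUSP6 peaked at 2 h in both lines, LAMB3 stayed high at 6 h, and MYC, DDX21 and RPL29 were lowest at 2 h.

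MYC, DDX21 and DKC1 were among the largest rises. MYC, the growth-promoting transcription factor gene, had fold enrichments of 36.8 in DMSO, 5.31 at 2 h and 30.0 at 6 h, and went from rank 2590 to 31, a log2 rank ratio of 6.38. In KO its values were 29.7, 6.43 and 23.6, with a ratio of 5.12. DDX21, an RNA helicase of ribosome synthesis that also unwinds R-loops, had 20.7, 4.29 and 17.2, with 4.83 in WT and 2.71 in KO. DKC1, the pseudouridine synthase of small nucleolar RNPs and telomerase, had 11.5, 2.92 and 17.7, with 5.38, and in KO had no promoter region at 2 h but 16 in DMSO and 9.27 at 6 h. These 3 genes thus had their lowest value at 2 h in WT and in KO.

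DKK1, a secreted Wnt inhibitor, went beyond its DMSO level. Its fold enrichments were 13.8, 8.66 and 28.0, its rank went from 738 to 38, and the log2 rank ratio was 4.28 in WT and 5.54 in KO. Other large rises had KO values below the call. FANCF, a Fanconi anaemia DNA repair gene, shares its summit with GAS2 and had 4.54 in WT and 0.36 in KO. PPP1R10, a regulator of protein phosphatase PP1, shares its summit with the mitochondrial ribosomal protein gene MRPS18B and had 4.23 and 0.58. GRPEL2, a mitochondrial chaperone cofactor gene, had 4.29 and 0.54, and MRPL33, a mitochondrial ribosomal protein gene, 4.18 and −0.64. With summits within 1 kb the WT value of GRPEL2 was 0.57, and ranked by pileup that of MRPL33 was 1.91. SSU72L4, at 4.27, belongs to a family of near-identical copies and is uncertain.

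Other promoters had a region at a single PMA time and could not be ranked. Of 1086 with a region at 2 h and none at 6 h, 458 (42.2%) had one in DMSO, and of 2405 with a region at 6 h and none at 2 h, 1150 (47.8%) did. The strongest at 2 h without one at 6 h were FMNL1, a formin gene that shapes actin, with a fold enrichment of 12.8 and none in DMSO, and CYP27A1, a sterol hydroxylase gene, with 11.4 and 6.91 in DMSO. TIMP1, the metalloprotease inhibitor, had 10.0 at 2 h in WT and 14.2 in KO, with no region in DMSO or at 6 h in either line. SLC7A5, which encodes a transporter of large neutral amino acids, was the strongest at 6 h without one at 2 h, with 19.9 at 6 h and 16.8 in DMSO. SSR3, a subunit gene of the translocon-associated complex, had 16.9 and 9.61, and CD24, a cell-surface glycoprotein gene, 13.5 and 13.5. Counted over DMSO, 2 h and 6 h, 1150 WT promoters were called at both ends and not at 2 h, against 458 called in DMSO and 2 h and not at 6 h. In KO the counts were 871 and 593. A region missing from a list may lie just under its threshold.

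Immediate early genes moved down in the ranks as a group. Of 44 members 30 were ranked, 24 were lower at 6 h and 6 higher, 9 were falling and 2 rising, and the median log2 rank ratio was −1.09 beside 0.02 for all genes. In KO 31 were ranked, with 20 lower, 10 higher and a median of −0.62. In the 3683 genes ranked in all 6 DRIP lists, 27 members had a median rank of 538 in DMSO, 258 at 2 h and 648 at 6 h. The 2 h library enters both differences.

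EGR1, a zinc finger transcription factor, had fold enrichments of 4.43, 17.5 and 6.89 in WT DMSO, 2 h and 6 h, with a log2 rank ratio of −4.23 in WT and −5.32 in KO. CSRNP1, a transcription factor gene induced by many signals, had −3.83 and −3.95, and BHLHE40, a basic helix-loop-helix repressor, −2.74 and −4.35. HES1, the Notch-responsive repressor, had −3.56 in WT and −0.76 in KO. FOSL1, the AP-1 subunit FRA-1, and MAFF, a small MAF factor, were falling at −2.65 and −2.37. Not all members fell. MCL1, the anti-apoptotic BCL2 family gene, stayed near the top at ranks 3 and 4, and IER3, a stress-response gene that shares its summit with another gene, went from 6 to 13. KLF6, a zinc finger factor gene, rose with 2.89 in WT (1.34 with summits within 1 kb) and 1.27 in KO, and with MYC made up the 2 rising members.

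Ribosomal protein genes moved the other way. Of 79 members 62 were ranked, 17 were lower, 44 higher and 1 equal, none was falling and 10 were rising, with a median log2 rank ratio of 0.77. In KO 62 were ranked, 7 lower and 55 higher with 12 rising, and the median was 1.38 beside 0.01 for all genes ranked in KO. RPL29 had fold enrichments of 28.0 in DMSO, 13.3 at 2 h and 29.9 at 6 h and went from rank 216 to 32. RPL15 had 65.7, 36.5 and 57.1 and went from 26 to 5. RPS26, RPL26, RPL23 and RPL35 had log2 rank ratios of 3.14, 2.84, 2.78 and 2.73. RPS12, whose region lies among small nucleolar RNA genes of the same transcript, was at rank 1 at both times. Over the genes ranked in all 6 lists, 59 members had a median rank of 236 in DMSO, 614 at 2 h and 368 at 6 h.

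Genes that work with the ribosome differed by group. Of 31 ranked mitochondrial ribosomal protein genes 21 were higher and 4 rising while 10 were lower and 1 falling, MRPL55 at −2.70, with a median of 0.14. MRPL17 had 3.81 in WT and 3.81 in KO, and MRPS27 had 3.86 and 3.62. Translation factor genes had a median of 0.11 in WT (0.49 with summits within 1 kb), with 12 lower and 16 higher, and of 0.39 in KO, with 5 lower and 24 higher. EEF1G, an elongation factor subunit gene, was their 1 rising member, at 2.06 in WT and 0.08 in KO. HSPA5, the chaperone of the endoplasmic reticulum, rose from rank 460 to 69 with 2.74 in WT and 3.45 in KO, while the other 10 ranked heat shock genes included 1 falling member, DNAJA1, at −2.27.

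Genes that restrain or carry the MAPK signal gave mixed values. The 10 ranked feedback genes had a median of −0.47 (−0.21 with summits within 1 kb), 7 being lower at 6 h and 3 higher. DUSP6, a phosphatase that acts on ERK, had fold enrichments of 22.3, 83.5 and 33.8 and went from rank 4 to 26, and SPRY4, an inhibitor of receptor tyrosine kinase signalling, had −2.48. DUSP5 and DUSP4, phosphatases of the cell nucleus, rose with 2.47 and 2.56, and DUSP5 had no region in DMSO. In KO DUSP5 was already at a fold enrichment of 22.3 at 2 h and its ratio was −0.84. So the DUSP genes peaked at different times in WT.

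The EGF receptor system split in a similar way. The 8 ranked members divided into 3 that were lower and 5 that were higher, and their median was 0.79. ADAM17, the protease that releases EGF receptor ligands, fell beside HBEGF with −3.71 in WT and −3.89 in KO, and had no promoter region in DMSO in either line. AREG, encoding the ligand amphiregulin, had 14.1, 10.0 and 20.8 in WT but 13.7, 22.9 and 8.71 in KO, and EGFR itself 5.65, 6.26 and 8.98 against 9.34, 13.8 and 4.98. Their log2 rank ratios were 2.72 and 0.96 in WT and −2.82 and −3.19 in KO. The median of the list in KO was −3.01, and this difference between the lines rests on 1 library for each value.

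NF-κB genes were mostly lower at 6 h, 6 of 7, with a median of −0.75, which was −0.13 over 5 genes with −log10 q of at least 5 and −1.67 over 4 with summits within 1 kb. NFKBIA, encoding the inhibitor IκBα, went from rank 30 to 116, and BIRC3, an inhibitor of apoptosis, was the 1 falling member at −2.08 in WT and had 0.80 in KO. Of 9 ranked cytokine genes 6 were lower, and CSF3, the granulocyte growth factor gene, fell most at −3.61 in WT and −2.90 in KO. In the plasminogen and metalloprotease list 4 of 5 were lower. PLAUR, the urokinase receptor, had no promoter region in DMSO and fell with −2.40, and MMP14, a membrane-bound metalloprotease, fell with −3.04.

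Adhesion genes differed from one another. The list had 11 ranked members, 7 below and 4 above their 2 h rank, a median of −0.14 and 3 falling genes, CD9 among them. CD44, the hyaluronan receptor, had −2.27 in WT and −4.44 in KO, and the integrin subunit gene ITGB8 −2.08 and −1.32. LAMB3, a chain of a basement membrane laminin, had fold enrichments of 8.34 in DMSO, 38.8 at 2 h and 37.3 at 6 h, and stayed at ranks 20 and 22. In KO its values were 13.7, 48.3 and 38.8. ITGB4, the integrin subunit that binds this laminin, had 18.3, 12.6 and 21, with 1.82 in WT and 3.10 in KO.

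Core histone genes were lower as a group in WT, with 15 lower and 6 higher of 21, 6 falling and 3 rising, and a median of −0.73, but 14 of 22 were higher in KO with a median of 0.30. H1-2, a linker histone gene, had 93.3, 33.3 and 21.1 in DMSO, 2 h and 6 h, and all 3 ranked linker histone genes were lower. Histone genes lie in clusters with near-identical copies and shared summits, such as that of H2AC12 and H2BC12 at −2.63, so single values there are uncertain. The keratin gene KRT5 had 27.1, 6.55 and 5.15 in WT and 14.8, 4.41 and 4.08 in KO, and did not return at 6 h. KRT17 fell with −3.14, and had no promoter region in KO at 6 h. Among 18 actin and SRF target genes 13 were lower, and VIM, the intermediate filament gene vimentin, and PFN1, the actin monomer binder profilin 1, were the falling ones at −2.84 and −2.24. Of 12 ranked p53 target and GADD45 genes 10 were higher, with a median of 0.38 and none past the call.

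Glycolysis genes were higher in WT at 8 of 11 members with a median of 0.48, as were all 4 ranked cholesterol synthesis genes, with a median of 0.59. In KO glycolysis genes had 5 lower and 7 higher with a median of 0.14. Cholesterol synthesis genes there had 3 lower and 2 higher with a median of −0.02. Squamous differentiation genes had 8 lower and 6 higher and a median of −0.08. Olfactory receptor genes, which are silent in most tissues, were ranked in 26 of 400 cases, with a median of 0.08.

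Several lists moved little. Cell cycle genes had 9 lower and 5 higher of 14, and CCND3 was the 1 falling member. Proteasome, zinc finger and R-loop factor genes had medians of −0.01, −0.01 and −0.03. In the last list DHX9, a helicase that acts on R-loops, had 0.11, and RNASEH1, which cuts the RNA of R-loops, −0.26. DDX21 and BRCA1, which shares its summit with another gene, were the 2 rising members. The APOBEC3 list had 3 ranked members, all lower, with a median of −0.30. No member of that list passed the call, which promoters ranked low at both times cannot reach.

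**Figure D4:**
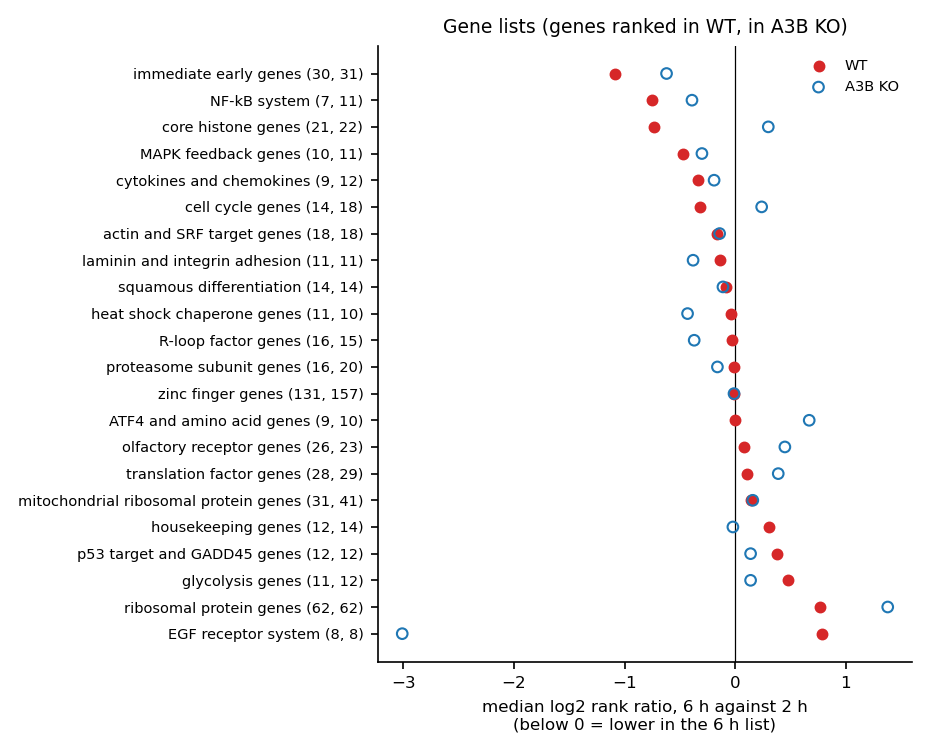
Median log2 rank ratio of promoters, 6 h against 2 h (x axis), for the gene lists with at least 7 ranked members in each line (y axis, numbers ranked in WT and in A3B KO in brackets), WT as filled red points and A3B KO as open blue circles. Immediate early genes (−1.09 in WT, −0.62 in KO) lie left of 0 and ribosomal protein genes (0.77 and 1.38) right of it in both lines, while core histone genes and the EGF receptor system lie on opposite sides.

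The genes for which the study used DRIP primers covered the range of these patterns. JUNB, an AP-1 subunit gene, had fold enrichments of 10.2, 38.9 and 18.2 in WT and 14.6, 59.8 and 15.7 in KO, and its log2 rank ratio was −2.57 and −3.44. FOS, its AP-1 partner, had 6.95, 24.2 and 12.2 in WT, with −2.55 and −2.27. DUSP1, a phosphatase that acts on MAP kinases, had 31.2, 41.5 and 27.2 in WT and 48.3, 77.2 and 33.7 in KO, with −1.20 and −2.04, but −0.21 in WT with summits within 1 kb. All 3 were lower at 6 h in both lines, and DUSP1 passed the call in KO alone. The paper reports, from DRIP–seq and immunofluorescence over time, that A3B helps PMA-induced R-loops to resolve in time. Rank ratios from 1 library per time do not measure the speed of resolution, which was not tested here. PIM3, a kinase gene related to PIM1, had −2.56 and −3.16, but −0.66 in WT with summits within 1 kb.

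Other primer genes had ratios of 0 or above by fold enrichment. GAPDH, a glycolytic enzyme gene, went from rank 33 to 7 with 2.24 in WT and 1.10 in KO, and its value was 0.69 by pileup and 1.14 by −log10 q. NAXE, which encodes an epimerase that repairs damaged NADH and NADPH, had 17.9, 5.31 and 11.1 with 2.46 in WT and 3.92 in KO. HSPA8, a constitutive chaperone gene, was at ranks 5 and 3, with a log2 rank ratio of 0.74, but −0.74 by pileup and −1.32 by −log10 q. GEMIN7, an SMN complex gene, had a log2 rank ratio of 0.00. The paper shows GAPDH and HSPA8 as genes that do not respond to PMA. It places GAPDH and GEMIN7 in its unchanged set of PMA against DMSO, with DRIP–qPCR. A rank depends on the other promoters of its list, so a change in rank is not the same measure. GADD45A and PHLDA1, genes of stress and growth arrest, had 0.42 and 0.71, and GADD45A had 0.08 by pileup.

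Primer pairs show which stretch of a gene the DRIP–qPCR of the study read, and 3 pairs were placed on hg38.
JUNB forward: ttaacagggaggggaagagg
JUNB reverse: ttccacagtacggtgcagag
FOS forward: ccatgacaggaggccga
FOS reverse: acattcccaggaagagtacg
DUSP1 forward: tgcccacttccatgaccat
DUSP1 reverse: ctctctcagtccaaaagcgg
The JUNB product, chr19:12793074-12793201, lies 1651 bp past the start, and no list had a region over it. Regions here are 500 bp windows around summits, so signal beyond them is not seen, and the absence does not mean that no R-loop lies there. The paper shows DRIP–qPCR for JUNB as a gene that responds to PMA. The FOS product, chr14:75280076-75280162, had fold enrichments of 6.95, 21.7 and 8.16 in WT DMSO, 2 h and 6 h, and 4.30 and 24.5 in KO DMSO and 2 h with none at 6 h. The DUSP1 product, chr5:172770934-172771099, had 10.8, 10.2 and 10.5 in WT but 7.65, 44.3 and 18.6 in KO. At DUSP1 the strongest promoter region lay elsewhere, 1111 bp past the start at 2 h, so the values depended on the position within the gene.

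Falling promoters differed from other ranked promoters in where the R-loop lay and in base composition. Their 2 h summit lay at a median of 581 bp downstream of the start, against 241 bp over all ranked genes and 261 bp for rising promoters, and 76.0% (70.3 to 81.0) had it downstream against 57.5% of all. The 2 h and 6 h regions of a gene had their summits at the same place in 78.5% of falling, 76.0% of rising and 79.7% of all ranked genes. The 2 h region of falling promoters had a median GC content of 61.8%, against 56.4% for rising and 54.0% for all, and a median of 15 runs of G against 10 and 10. The median GC skew on the gene strand was 8.95%, 5.4% and 5.23%. These differences were not tested, and falling promoters are by the rule strong at 2 h.

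In the genes ranked in all 6 lists, the 210 falling ones had a median rank of 1513 in DMSO, 322 at 2 h and 2038 at 6 h. The 169 rising ones had 853, 2036 and 352, and all 3683 genes 1841, 1839 and 1842. In DMSO, the value the rule did not use, both sets thus stood above the median of all genes, rising promoters more so.

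Short motifs were searched in the RefSeq promoter windows of GRCh38.p14, 250 bases before to 50 after a start, which matched 15316 of the protein-coding genes by symbol. EGR sites (GCGNGGGCG, either strand) were in 23.8% (18.3 to 30.4) of 189 falling promoters, 13.8% of 159 rising ones, 14.2% of 4098 ranked ones and 12.8% of all 15316. CRE sites (TGACGTCA, either strand) were in 6.35%, 2.52%, 3.49% and 2.64%. AP-1 sites (TGANTCA, either strand) were in 5.29%, 4.40%, 5.37% and 5.75%, the E-box CACGTG in 6.88%, 8.81%, 9.42% and 8.88%, and the TATA box (TATAAA, gene strand) in 7.41%, 4.40%, 4.95% and 6.95%. None of these motifs contains another, and an EGR site is itself rich in GC, as falling promoters are. CCND3 and EGR1 held an EGR match, and DUSP1 a CRE, an E-box and a TATA match. JUNB, FOS and DKK1 held a TATA match and GAPDH an E-box. HBEGF, PIM1, CD9, DKC1 and DDX21 held none of the 5 motifs. A match describes letters in a window and not a bound site.

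In A3B KO, an independent pair of libraries, the falling and rising promoters mostly kept their direction. By the same rule 4.39% of 5848 genes ranked in KO were falling there and 3.40% rising. Of 229 WT falling genes ranked in KO, 83.8% (78.5 to 88.0) were lower at 6 h, 100 were falling, 2 were rising and the median was −1.68. Of 186 WT rising genes 78.5% (72.0 to 83.8) were higher, 32 were rising, 1 was falling and the median was 0.78. Over all 4366 genes ranked in both lines 49.7% were lower and 50.2% higher, 5.52% were falling and 3.85% rising in KO, and the log2 rank ratios had a Spearman rho of 0.29 across genes. Among genes called at a single time in WT the KO direction was closer to even, with 57.5% of 362 from the 2 h side lower and 42.3% of 784 from the 6 h side lower. REXO5 and DNAAF10 were the 2 WT falling genes that were rising in KO and AREG the WT rising gene that was falling there.

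A3B-eGFP, measured in other cells by another assay, was found more often at falling promoters after PMA. Of 242 falling promoters 59, or 24.4% (19.4 to 30.2), had an A3B-eGFP region in doxycycline with PMA, against 24 of 200 rising ones (12%, 8.20 to 17.2) and 10.1% (9.31 to 10.9) of all ranked ones. In doxycycline with DMSO the shares were 15.3%, 18.5% and 12%, and without doxycycline, where A3B-eGFP is not induced, 1.65%, 7% and 1.95%. Strong R-loop promoters carried A3B-eGFP more often whatever their later fate. Among promoters at 2 h ranks 1 to 250 the share was 32.1% (22.7 to 43.0) of 78 falling and 27.3% (21.2 to 34.4) of 172 others. At ranks 251 to 1000 it was 21.7% (15.9 to 28.9) of 152 falling and 12.7% (10.3 to 15.6) of 598 others. At 6 h ranks 1 to 250 it was 20.0% of 60 rising and 30.0% of 190 others. At 6 h ranks 251 to 1000 it was 8.73% of 126 rising and 9.78% of 624 others. Promoters of 1 library are not replicates, and these differences were not tested. As examples, HBEGF, CD9, EGR1 and FOS had no promoter region of A3B-eGFP in DMSO and fold enrichments of 2.18, 2.35, 3.35 and 2.62 with PMA. The median over all regions of the PMA list was 3.19, and most falling promoters had no region in it. MYC, another example, had 3.32 in DMSO and none with PMA.

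R-loop regions also came and went along whole genes. With lists of equal length, 118 of 14750 genes with any region held at least 10 fewer regions at 6 h, 0.800%, and 83 held at least 10 more, 0.563%. The balance depended on list length, since the lists as called gave 14 and 582 and the stricter q of the alternatives 59 and 41, both counted after seeing the data. Genes with fewer had a median length of 84.6 kb and those with more 629 kb, against 42.1 kb for all, and 95 of the 118 and 55 of the 83 moved the same way in KO as a share of the list. Over all 14750 genes, 7684 had a lower share in KO at 6 h and 6573 a higher one. Within 2119 genes over 100 kb with at least 5 regions at both times, 50.4% (48.3 to 52.6) had their regions farther from the start at 6 h, so no shift along genes was seen between these times.

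PDXDC1 and WASHC2C, with the large losses of 118 to 60 and 29 to 0 regions at equal length, lie in duplicated parts of the genome and are uncertain. CTNNA1, which encodes α-catenin of cell junctions, went from 70 to 38. TET1, the DNA demethylation enzyme gene, went from 30 to 10. NDRG1, a stress-induced gene, held 2 regions in WT DMSO, 23 at 2 h and 5 at 6 h (2 at equal length), and 1, 31 and 11 in KO. Its body also held 67 A3B-eGFP regions with PMA and none in DMSO.

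Among the gains were AUTS2 and RBFOX1, genes of neuronal development and splicing, and CSMD1, a complement regulator gene. AUTS2 went from 23 to 48 regions at equal length, CSMD1 from 21 to 44, RBFOX1 from 97 to 119 and WWOX, which spans a common fragile site, from 37 to 57. KDM6B and the body of SLC7A5 were chosen after their values were seen. KDM6B, a histone demethylase gene, held 1, 15 and 3 regions in WT DMSO, 2 h and 6 h, and 6, 18 and 2 in the KO. SLC7A5 held 27, 1 and 12 in WT and 22, 2 and 6 in KO. NDRG1 and KDM6B were thus filled at 2 h and SLC7A5 emptied at 2 h, in both lines.

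**Figure D5:**
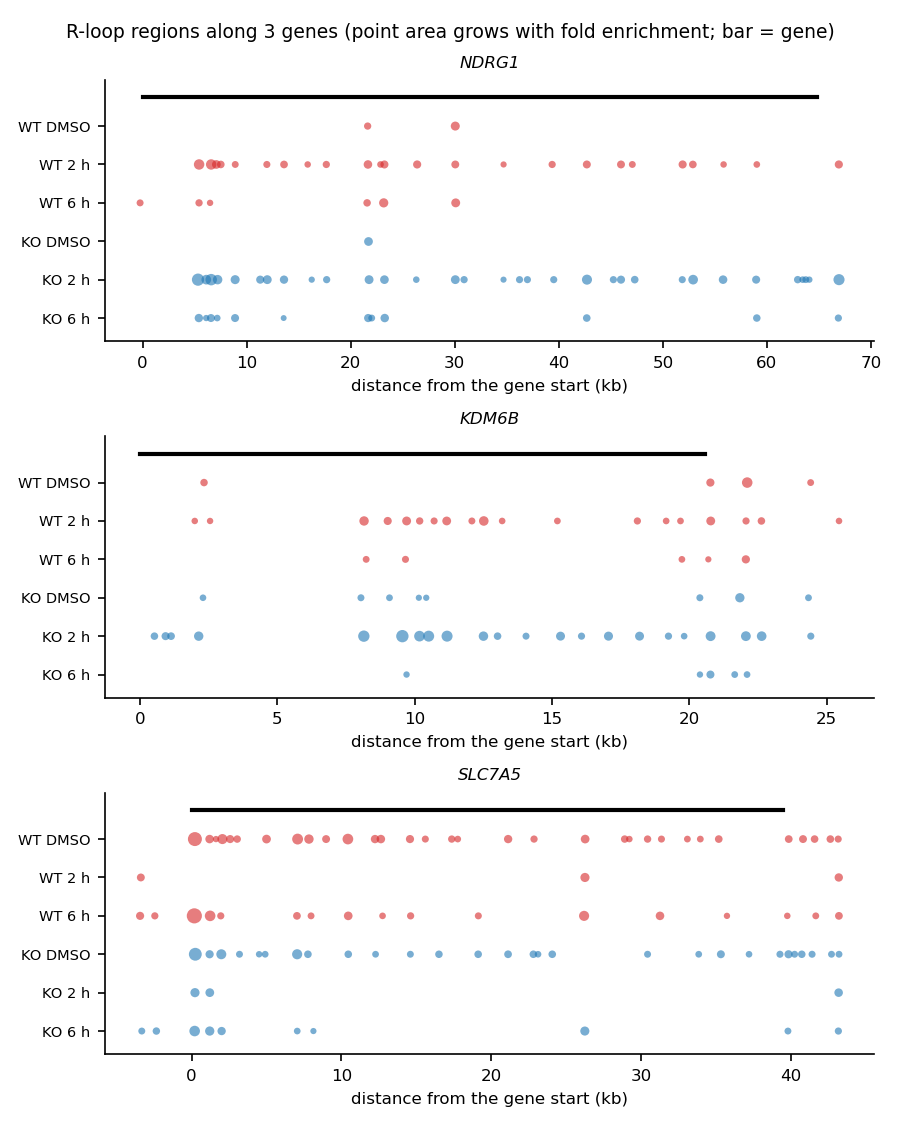
Regions along NDRG1, KDM6B and SLC7A5 (x axis, kb from the gene start in the direction of transcription) in 6 DRIP–seq lists (rows, WT in red and A3B KO in blue), each point a region with an area that grows with fold enrichment and the black bar the gene, with 5 kb to either side. Within the bar NDRG1 holds 23 WT regions at 2 h against 2 in DMSO and 5 at 6 h, while SLC7A5 holds 1 at 2 h against 27 in DMSO and 12 at 6 h.

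Some genes named above held many A3B-eGFP regions with PMA in their bodies. They are examples, and no share over all genes is given here. The 7122 regions of that list came from 3893 MACS2 peaks, so several regions in a gene can belong to 1 peak. In the lists as called, CD9 held 13 R-loop regions in WT at 2 h, 4 by 6 h, and 16 A3B-eGFP regions with PMA against 0 in DMSO. HBEGF held 10 and 3 R-loop regions, and 13 A3B-eGFP regions with PMA against 0. PLAUR held 20 and 11 R-loop regions, and 37 against 0. LAMB3, whose promoter stayed high, held 22 and 17 R-loop regions, and 59 A3B-eGFP regions with PMA against 2 in DMSO. The ChIP–seq has no 6 h library, so whether A3B-eGFP leaves these genes by 6 h was not tested.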

How the data were processed

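The analysis started from 9 deposited lists, 1 library each, of DRIP–seq in WT and A3B KO cells and of anti-GFP ChIP–seq in A3B-eGFP cells, all derived from MCF10A. All 18 samples were grouped by their labels, and the 9 inputs were not analysed here on their own. The authors pooled several immunoprecipitations per library. Per the submitters' processing notes and the methods, reads were processed with cutadapt 1.13, STAR 2.6.1d (hg38), SAMtools 1.3.1, Picard, bedtools 2.29.2 and deepTools 2.5.0.1, and peaks were called at a q of 0.01 with summits by MACS2, version 2.2.6 in the notes and another version in the methods. The deposited pileup is the authors' signal in fragments at the summit. The deposited fold enrichment is a ratio the authors' peak caller gives, signal at the summit over local background with the input as control. The deposited −log10 p and −log10 q are the authors' values against the input. Stronger pulldown or deeper reads lengthen a list, so promoters were compared by rank.

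Regions were annotated with GENCODE 44, a gene starting at its most 5′ start. Mitochondrial regions (7 at 2 h, 4 at 6 h) were left out. Overlaps needed 1 bp, were checked with bedtools 2.31.1 (79549 by both), and were tested on simulated data. Scripts ran in Python 3.11.15, with matplotlib 3.10.9 for plots, pysam 0.24.0 for sequences and pandas 2.3.3, scipy 1.17.1 and numpy 2.4.6 for values. The members, gene lists and call rule were chosen with earlier results of these data known. Named genes are those with DRIP primers or a drawn time course, the 12 largest falls and 12 largest rises among genes that reached rank 1000 at either time, the 6 strongest promoters called at a single time, for each time, the 8 genes with the largest change in regions each way, and up to 6 members per list plus members missing from a list; the text gives a choice, and results at some of these genes are not reported here. Others are said to be chosen after their values were seen. Alternatives were −log10 q of at least 5, overlaps of 250 bp, equal list length, merged windows, ranks by pileup or −log10 q, summits within 1 kb and 1 gene per summit.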

Additional observations from a re-analysis of the deposited data

Results flagged for a closer look

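Some results differed in direction between WT and A3B KO. None of these differences could be tested, since each rests on 1 library per line and time. REXO5, which encodes an RNA exonuclease, had a log2 rank ratio of −2.33 in WT and 2.75 in A3B KO, and DNAAF10, a gene of dynein arm assembly, had −2 and 2.01. AREG, the amphiregulin gene, had 2.72 in WT and −2.82 in A3B KO. The median of the EGF receptor system was 0.79 in WT and −3.01 in A3B KO over 8 ranked genes in each line. The median of core histone genes was −0.73 in WT and 0.30 in A3B KO.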

How the results depend on the processing

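Percentages of shared regions moved by more than counting error. Of 2 h regions 71.2% were overlapped at 6 h, but 72.7% with −log10 q of at least 5, 65.6% with overlaps of 250 bp, 56.0% at equal list length and 69.7% with merged windows. For 6 h regions at 2 h these were 52.4%, then 47.0%, 45.0%, 55.8% and 49.0%. Early regions kept were 59.2% with the stricter q and 40.2% at equal length. Regions within genes were 55.3% (2 h) and 53.7% (6 h) with the stricter q and 53.1% (6 h) at equal length, where the mean per gene was 3.21 instead of 4.85. With summits within 1 kb, 134 promoters were falling and 115 rising, and by pileup 114 were rising. Falling promoters lower in KO were 94.9% by pileup and 88.8% by −log10 q, and rising ones higher in KO 92.4% and 89.4%. Falling promoters with A3B-eGFP were 18.2% with the stricter q, where all ranked promoters were at 6.79%, and 30.7% by pileup. Rising ones were 7.83% with summits within 1 kb. Chosen after seeing the data, the lists as called gave 14 genes with at least 10 fewer regions and 582 with at least 10 more, and the stricter q gave 59 and 41. Also added then, taking off the median of each decile of GC content gave 247 falling and 191 rising promoters, and medians of −0.97 for immediate early and 0.79 for ribosomal protein genes.

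Over all settings the immediate early median ran from −0.77 to −1.16 and the ribosomal protein median from 0.69 to 0.82. A count was made for 28 named genes past the call, taken from the largest falls and rises, the primer genes, EGR1 and KLF6. Under 7 alternatives they had 182 values, all in the same direction and 176 still past the call. A setting that left a gene unranked gave no value, as for CD9 with the stricter q, at equal length and within 1 kb. Other named genes past the call were not counted. The causes of these moves were not tested. No paired analysis was possible because each condition has 1 library, and no replicate could be left out. Read depth was not known, so a region missing from a list cannot be told from one under its threshold.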
